A study of Mus musculus with 6 samples.

Results

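The genes described here are 42 genes of the unfolded protein response and of protein entry into the endoplasmic reticulum (ER), taken by gene symbol from a list of names. All 42 were present among the 24346 gene symbols of the tables. RNA sequencing was done on follicular (Fo) B cells, the recirculating mature B cells, from spleen. They were sorted as B220+ CD93- cells with low CD21 and high CD23. There were 3 replicate libraries, numbered 1 to 3, from B6 control mice (WT), and 3 from mice homozygous for G9gl, a knock-in of heavy and light chain genes that encode the germline form of a lupus antibody against double-stranded DNA. All mice were 8 weeks old, and the labels give no treatment. The study compared the genotypes to learn about the anergic state of G9gl B cells, in which a self-reactive cell persists but responds weakly. Whether replicates are separate or pooled animals is not stated in the labels, so the p-values below speak to the spread of these samples alone, and that spread may be technical.

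The ER is where secreted and membrane proteins, the B cell receptor among them, are translocated, folded and joined by disulfide bonds. When unfolded proteins accumulate there, 3 membrane sensors respond: IRE1 (Ern1), which splices Xbp1 mRNA; PERK (Eif2ak3), a kinase that slows translation and favours that of Atf4; and ATF6 (Atf6), which is cleaved to a transcription factor. Together they raise chaperones, folding enzymes and the machinery that sends misfolded proteins back to the cytosol for degradation. In B cells this response is best known from plasma cell differentiation, in which XBP1 expands the secretory pathway. Splicing, phosphorylation and cleavage are not read by gene-level RNA values, so the measurements below concern transcript levels alone.

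Many genes of this response carry short promoter sequences that ATF6 and XBP1 bind, and these are shown first because they mark members that share a sequence known from this response. RefSeq promoter windows of build GRCm38.p6, from 250 bases before to 50 bases after an annotated start, were found for 35 of the 42 members. The ER stress element, CCAAT and CCACG separated by any 9 bases, on either strand, was present in 8 of the 35 members, 22.9%, against 0.137% (37 of 27025) of all genes with a window and 0.179% of the 7811 of them that were tested here. The related second ER stress element, ATTGG and CCACG separated by any 1 base, was present in 2 members, 5.71%, against 0.0444% of all genes and 0.0896% of those tested. Both elements are known from genes of this response, and the members were chosen as such genes, so this excess is no separate result. The matches are given 5′ to 3′ in the orientation of the element, with its fixed letters in capitals.
Hspa5, chr2:34772025-34772043, plus strand: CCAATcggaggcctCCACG
Hsp90b1, chr10:86705638-86705656, minus strand: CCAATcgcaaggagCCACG
Hsp90b1, chr10:86705533-86705551, plus strand: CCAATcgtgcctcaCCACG
Calr, chr8:84847075-84847093, plus strand: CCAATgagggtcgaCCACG
Canx, chr11:50325800-50325818, minus strand: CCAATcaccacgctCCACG
Creld2, chr15:88819520-88819538, minus strand: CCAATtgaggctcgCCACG
Dnajc3, chr14:118937827-118937845, plus strand: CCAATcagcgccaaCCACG
Pdia6, chr12:17266491-17266509, plus strand: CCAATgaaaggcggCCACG
Syvn1, chr19:6046532-6046550, plus strand: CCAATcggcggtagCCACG
Herpud1, chr8:94386377-94386387, plus strand: ATTGGgCCACG
Dnajb11, chr16:22857852-22857862, plus strand: ATTGGcCCACG

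The Hspa5 element began 65 bases before the start and that of Herpud1 52 bases before it, whereas the Dnajb11 match lay just after its start. The half-site CCACG, which is contained in both elements, was present on either strand in 28 of the 35 members (80%), against 35.5% of all genes and 53.3% of those tested. The UPR element TGACGTGG, which also contains CCACG on its other strand, and the amino acid response element TGATGNAAT were found in 0 of the 35, against 0.714% and 1.08% of all genes and 1.09% and 0.486% of those tested. A match is a description of these letters and not a bound site, and a missing match says only that the letters are not in the window. Hspa5 and Hsp90b1, the most abundant luminal chaperones of the heat-shock families, are set beside Eif2ak3, whose window held no CCACG on either strand. Each is shown for the 250 bases before its start, on the strand of the gene, with full element matches in capitals.
Hspa5, chr2:34771840-34772089, plus strand: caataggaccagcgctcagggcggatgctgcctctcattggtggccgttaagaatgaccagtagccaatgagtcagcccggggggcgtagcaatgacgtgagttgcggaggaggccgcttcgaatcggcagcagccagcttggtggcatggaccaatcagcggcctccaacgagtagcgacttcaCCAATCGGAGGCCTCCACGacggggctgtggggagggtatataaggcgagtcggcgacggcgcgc
Hsp90b1, chr10:86705445-86705694, minus strand: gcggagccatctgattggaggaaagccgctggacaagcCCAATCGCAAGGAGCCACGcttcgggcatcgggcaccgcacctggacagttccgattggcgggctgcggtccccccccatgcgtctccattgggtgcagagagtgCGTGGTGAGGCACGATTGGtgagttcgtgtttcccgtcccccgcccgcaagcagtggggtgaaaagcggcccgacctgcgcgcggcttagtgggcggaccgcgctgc
Eif2ak3, chr6:70844265-70844514, plus strand: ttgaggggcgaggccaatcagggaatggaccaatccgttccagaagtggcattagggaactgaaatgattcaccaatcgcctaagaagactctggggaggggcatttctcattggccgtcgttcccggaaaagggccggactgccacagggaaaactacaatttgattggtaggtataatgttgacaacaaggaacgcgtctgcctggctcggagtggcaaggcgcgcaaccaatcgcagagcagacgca

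In G9gl Fo B cells the genes of this system did not move as 1 block. BiP (Hspa5), the isomerase Pdia4, the degradation genes Herpud1 and Edem2, the secreted factor Manf and the translocon subunits Sec61g and Ssr2 were higher than in WT, by 1.16-fold to 1.31-fold. PERK (Eif2ak3), Edem1 and Fkbp11 were lower, by 1.33-fold to 1.69-fold. The other 32 members, with the transcription factors Xbp1, Atf4 and Ddit3 among them, were not called. Expression is in FPKM, fragment counts divided by transcript length and by the mapped total of the library, and a gene is called at a Benjamini-Hochberg adjusted p under 0.05 in limma on log2(FPKM + 1), a scale on which changes of weakly expressed genes are understated. All 42 members passed the filter of at least 1 FPKM in 3 libraries, and 39 were above 10 FPKM in every library.

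The 7 members called higher were 16.7% of the 42, against 11.8% of all 10122 genes tested, and the 3 called lower were 7.14%, against 11.6%. Together the 10 called were 23.8%, against 23.4%. These shares did not stand far from those of all genes. The median log2 fold change of the members was 0.085, against -0.0022 over all genes tested, and 27 of the 42 had a positive log2 fold change, against 49.7% of all genes. The libraries of the genotypes did not overlap for 10 members that were higher and 4 that were lower, against 20.3% and 20.5% of all genes. Rescaling to TPM moved the median of all tested genes to -0.13 and left 1 member (Hspa5) higher and 6 lower, the added ones being Hyou1, Edem3 and Spcs3. Quantile normalization left 4 higher and 3 lower. Relative to the median of all genes, that of the members was 0.087 higher, and 0.084 higher after rescaling to TPM. Without G9gl replicate 1 it was 0.040 higher, with 4 members higher and 5 lower. Without WT replicate 2 or G9gl replicate 2, 1 and 3 members were higher, and without WT replicate 1, 4 were. The number of higher members thus changed with the library left out. Fewer of all genes were called higher in these fits too: 829 without WT replicate 2, 793 without G9gl replicate 2 and 951 without WT replicate 1, against 1191.

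**Figure D1:**
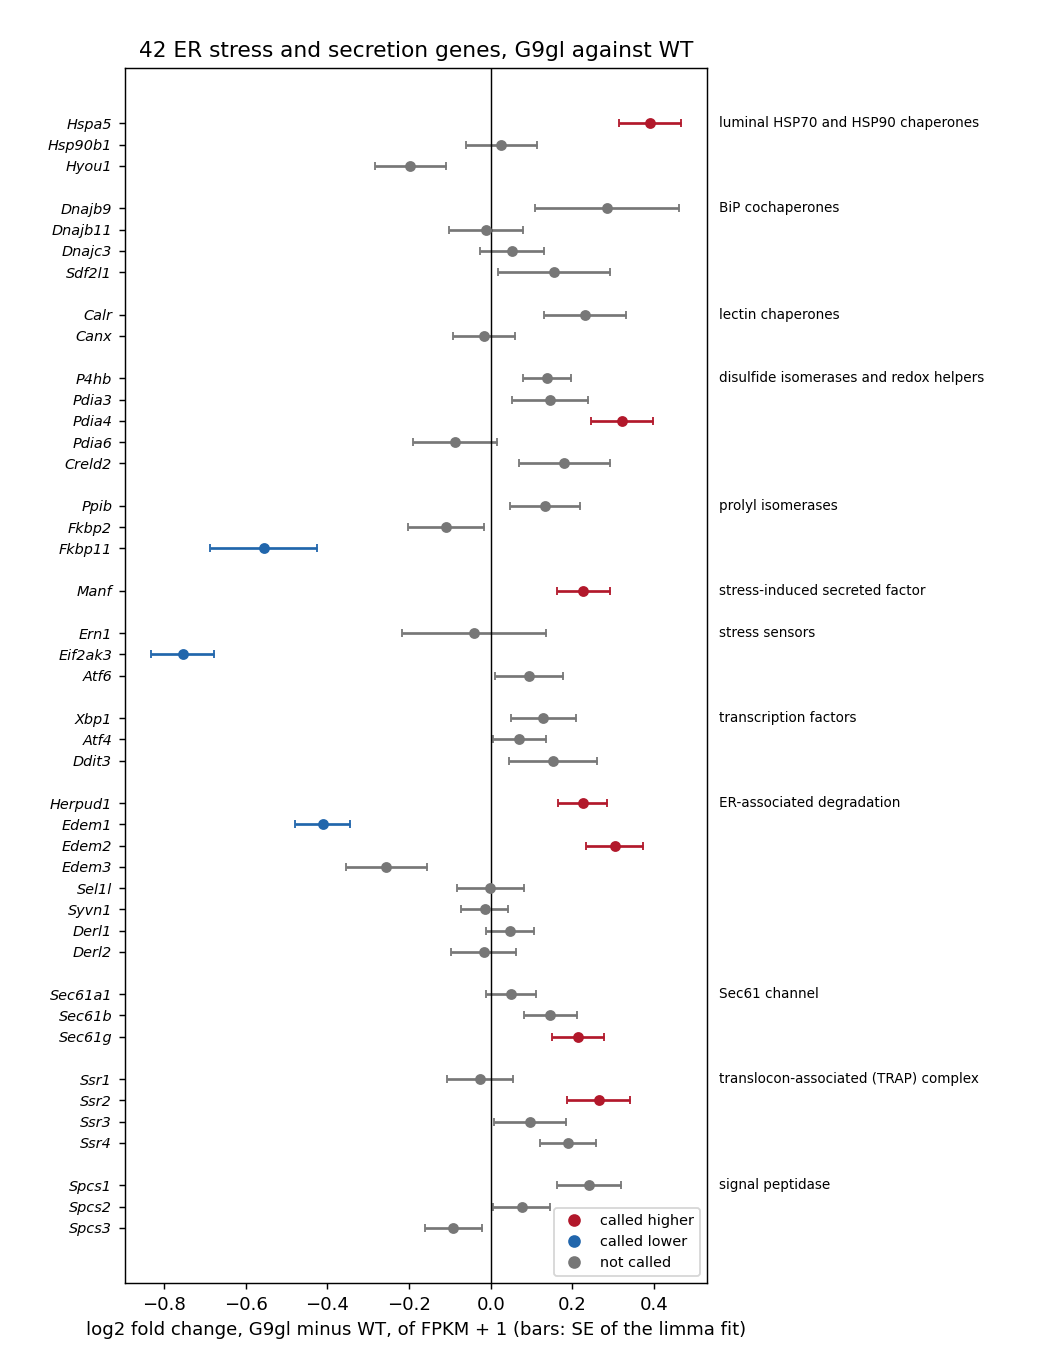
Log2 fold change of each of the 42 genes in G9gl against WT, on the log2(FPKM + 1) scale, grouped by role. Points are limma estimates from 3 libraries per genotype, bars are their standard errors, red marks the 7 genes called higher and blue the 3 called lower. Eif2ak3 lies farthest to the left at -0.76 and Hspa5 farthest to the right at 0.39.

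Among the 3 sensors, PERK alone was called. Eif2ak3 (ENSMUSG00000031668.14, chr6:70844515-70905245, plus strand, build mm10) measured 27.6, 27.6 and 31.6 FPKM in WT replicates 1 to 3 and 16.6, 16.8 and 16.7 FPKM in G9gl replicates 1 to 3. Every G9gl library was below every WT library, and the 3 G9gl values nearly coincided. The fall was 1.69-fold (log2 fold change -0.76 ± 0.077 SE, limma adjusted p 1.6e-04), and it was called in all 15 alternative analyses. Ern1, which encodes IRE1, was the least abundant member, at 1.26, 1.03 and 1.94 FPKM in WT replicates 1 to 3 and 1.05, 1.59 and 1.35 FPKM in G9gl replicates 1 to 3. The Ern1 groups overlapped (adjusted p 0.89 in limma), and at this level the 95% confidence interval of the fold change, 0.738 to 1.28, was among the wider ones. Atf6 measured 14.6, 14.6 and 13.3 FPKM in WT replicates 1 to 3 and 15.8, 14.001 and 15.8 FPKM in G9gl replicates 1 to 3, again with overlap (limma adjusted p 0.46, interval of the fold change 0.936 to 1.22). The ratio of Eif2ak3 to Atf6 within a library, which no scale factor between libraries can alter, was 1.89, 1.89 and 2.38 in WT replicates 1 to 3 and 1.06, 1.198 and 1.06 in G9gl replicates 1 to 3. The genotypes did not overlap in it; this and the other ratios below were chosen after the values were seen and are given without a test.

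The transcription factor genes Xbp1, Atf4 and Ddit3 were measured at moderate to high levels and were not called. Xbp1, the target of IRE1, measured 89.5, 93.6 and 104 FPKM in WT replicates 1 to 3 and 115, 97.2 and 103 FPKM in G9gl replicates 1 to 3. Its highest value was in G9gl replicate 1 and the groups overlapped, with a fold change of 1.09-fold (95% interval 0.966 to 1.24, limma adjusted p 0.28). Atf4, which is controlled mainly at the level of translation, measured 97.4, 93.1 and 105 FPKM in WT replicates 1 to 3 and 107, 105 and 97.1 FPKM in G9gl replicates 1 to 3, which gives an interval of 0.949 to 1.16 (limma adjusted p 0.48). Ddit3, the gene of the pro-apoptotic factor CHOP, measured 44.95, 35.8 and 48.2 FPKM in WT replicates 1 to 3 and 51.7, 44.7 and 46.5 FPKM in G9gl replicates 1 to 3. Its interval was 0.9405 to 1.31 (limma adjusted p 0.34). After rescaling to TPM the log2 fold changes of Xbp1 and Atf4 were slightly negative, at -0.0025 and -0.062.

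A further list held ATF4 targets and genes of amino acid synthesis and eIF2 control, not all of them downstream of PERK. Of its 58 genes 46 were tested, and 5 were called higher and 4 lower, 10.9% and 8.70% against 11.8% and 11.6% of all genes. Of those called higher, Asns passed the filter on low values through the G9gl libraries alone and so had to differ, which leaves 4 higher and 4 lower of the other 45. The ATF4 targets called went both ways. Ddit4, a stress-induced inhibitor of mTOR signalling, fell 2.63-fold, from 6.02, 5.98 and 5.77 FPKM in the 3 WT libraries to 1.9004, 1.49 and 1.54 FPKM in the 3 G9gl libraries (limma adjusted p 5.4e-05). Slc38a2, an amino acid transporter gene, rose 1.33-fold, from 49.8 ± 0.884 to 66.5 ± 4.13 FPKM (limma adjusted p 0.0017). Asns, the asparagine synthetase gene, measured 0.159, 0.494 and 0.344 FPKM in the WT libraries and 2.77, 2.001 and 1.32 FPKM in the G9gl libraries, and was not tested when any of the latter was left out. The others called higher were Sesn2, Eif2b3 and Eif2s2, and the others called lower were Cars, Crebzf and Slc1a5. These last 6 were named after their values were seen. Leaving out any 1 library left 2 or 3 genes of the list higher. The count lower was 1 without WT replicate 3, 2 without WT replicate 2, G9gl replicate 2 or G9gl replicate 3, and 10 after rescaling to TPM.

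BiP was the most abundant member and the one with the largest rise. Hspa5 (ENSMUSG00000026864.13, chr2:34771970-34777547, plus strand), the HSP70 chaperone of the ER lumen and a sensor-binding protein, measured 415, 431 and 409.97 FPKM in WT replicates 1 to 3 and 623, 526 and 504 FPKM in G9gl replicates 1 to 3. All G9gl libraries were above all WT libraries, and replicate 1 was the highest of them. The rise was 1.31-fold (log2 fold change 0.39 ± 0.076 SE, limma adjusted p 0.0055). It was called in 14 of the 15 alternatives, the exception being quantile normalization, where the adjusted p was 0.065. Outside the members, Sil1, a nucleotide exchange factor gene of BiP, was called higher and is given below. The other luminal HSP70 and HSP90 chaperone genes among the members did not pass. Hsp90b1, the HSP90 of the ER lumen (GRP94), measured 206, 203 and 213 FPKM in WT replicates 1 to 3 and 247, 198 and 192 FPKM in G9gl replicates 1 to 3, so that G9gl replicate 1 was above WT and replicates 2 and 3 were below it (limma adjusted p 0.86). Hyou1, an HSP70-like exchange factor for BiP, measured 22.7, 24.3 and 24.1 FPKM in WT replicates 1 to 3 and 23.3, 19.4 and 19.2 FPKM in G9gl replicates 1 to 3 (limma adjusted p 0.14). Without G9gl replicate 1, Hyou1 was called lower, with a log2 fold change of -0.28 and a limma adjusted p of 0.029.

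Of the other cochaperones, lectin chaperones and disulfide isomerases among the members, none but Pdia4 was called. Several had their highest value in G9gl replicate 1. Calr, a lectin chaperone of glycoproteins, measured 265, 274 and 275 FPKM in WT replicates 1 to 3 and 386, 290.1 and 289 FPKM in G9gl replicates 1 to 3, and Pdia3, the isomerase that works with it, 206, 204 and 202 FPKM in WT replicates 1 to 3 and 268, 208 and 205 FPKM in G9gl replicates 1 to 3. For both genes G9gl replicate 1 stood well above the other 5 libraries, and the limma adjusted p was 0.13 and 0.30. For Calr every G9gl library was above every WT library, whereas the genotypes overlapped for Pdia3. Sdf2l1, a BiP cochaperone, had 77.9 FPKM in G9gl replicate 1 and 49.9 to 57.4 FPKM elsewhere (limma adjusted p 0.46). Dnajb9, another BiP cochaperone and a well-known XBP1 target, ranged from 15.4 to 22.9 FPKM in WT and from 18.4 to 29.9 FPKM in G9gl (limma adjusted p 0.28). Creld2, an ER-resident stress-induced gene, was also highest there, at 60.3 FPKM in G9gl replicate 1 against 42.1 to 47.9 FPKM in the other 5 libraries. Canx, the membrane-bound partner of Calr, measured 94.1 ± 6.101 FPKM for WT against 93.2 ± 8.01 FPKM for G9gl (limma adjusted p 0.90). The BiP cochaperones Dnajb11 and Dnajc3 measured 85.4 ± 4.104 FPKM for WT against 85.2 ± 11.4 FPKM for G9gl and 16.9 ± 0.351 FPKM for WT against 17.6 ± 1.27 FPKM for G9gl (limma adjusted p 0.94 and 0.67). P4hb, the archetypal disulfide isomerase, measured 115 ± 3.44 FPKM for WT against 127 ± 7.65 FPKM for G9gl (limma adjusted p 0.13). For these 4 genes the genotypes overlapped. Pdia6 measured 186 ± 4.61 FPKM for WT against 177 ± 30.7 FPKM for G9gl (SD, n = 3 per group, as for all such values) and was called lower only without G9gl replicate 1 (limma adjusted p 0.025).

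The same library stood out over a set of 14 members, namely the luminal HSP70 and HSP90 chaperones, the BiP cochaperones, the lectin chaperones, and the disulfide isomerases with Creld2, but not the prolyl isomerases. For all 14 genes G9gl replicate 1 was above the mean of the other two G9gl libraries on the log2(FPKM + 1) scale, with a median difference of 0.33, whereas over all genes tested 51.2% were above it, with a median of 0.0050. The set of 14 was not among the planned groups and is given without a test. Over all 42 members 32 were above that mean in G9gl replicate 1. Of the prolyl isomerases, Ppib and Fkbp2 were highest of the 3 G9gl libraries there, whereas Fkbp11, at 8.72 FPKM, lay between 8.09 and 10.8 FPKM. Among the 42 members G9gl replicate 1 was the highest of the 6 libraries for 22, against 17.5% of all genes. Genes outside the members differed there too. Of 7 erythroid genes 5 were highest of the 6 libraries in G9gl replicate 1, with Hba-a1, a haemoglobin gene of red cells, at 205 FPKM there and 25.8 to 67.5 FPKM in the other 5. Of 25 genes of cell dissociation and heat shock, 13 were highest of the 6 in that library, and 15 were the highest and 8 the lowest of the 3 G9gl libraries there. Junb, an early response gene, measured 705 FPKM there against 287 to 452 FPKM, whereas Dnaja1, a cytosolic cochaperone gene, measured 67.5 FPKM there against 77.9 and 88.3 FPKM in the other two G9gl libraries. The part of these in the chaperone values was not tested.

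**Figure D2:**
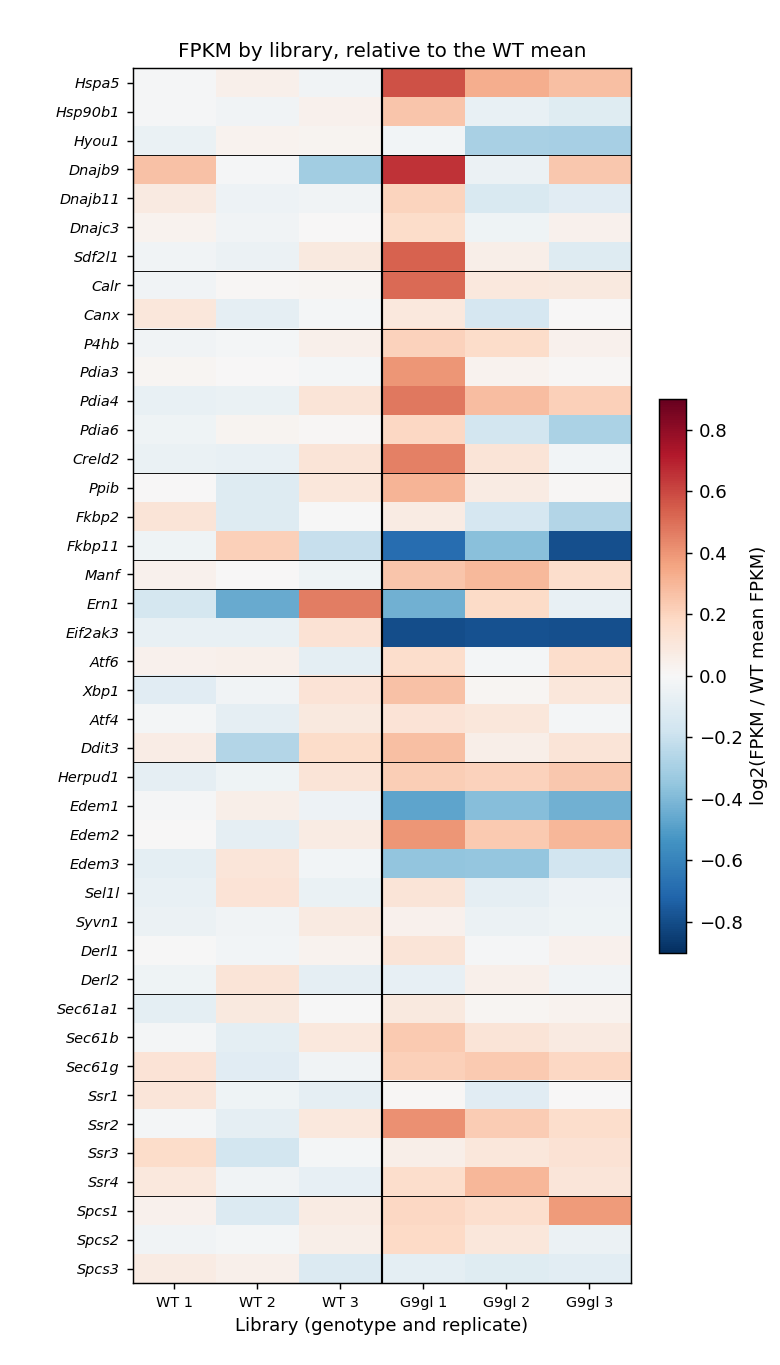
FPKM of the 42 genes in each library, as log2 of the ratio to the gene's WT mean; rows are genes, in role groups separated by lines, and columns are the 3 WT and 3 G9gl libraries. G9gl replicate 1 is red for most chaperones, from Hspa5 to Creld2, while Eif2ak3 and Edem1 are blue in all 3 G9gl libraries.

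Pdia4, a disulfide isomerase with several thioredoxin domains, was the other folding enzyme among the members that rose. It measured 207, 208 and 234 FPKM in WT replicates 1 to 3 and 299.6, 261 and 251.1 FPKM in G9gl replicates 1 to 3, so that the genotypes did not overlap. The rise was 1.25-fold (log2 fold change 0.32 ± 0.077 SE, limma adjusted p 0.015), and it missed the threshold without WT replicate 1 or 2 (limma adjusted p 0.054 and 0.062). Manf, a small secreted protein induced by ER stress, rose 1.17-fold, from 32.2, 31.4 and 30.5 FPKM in the WT libraries to 37.2, 38.4 and 35.03 FPKM in the G9gl libraries. Its call (limma adjusted p 0.033) was kept without G9gl replicate 3 and lost without any 1 of the other 5 libraries, where the adjusted p was 0.052 to 0.13, and it was lost with the replicate number as a block (limma adjusted p 0.058). Among the prolyl isomerases, Fkbp11, a gene typical of secretory cells, fell 1.47-fold. It measured 13.7, 16.3 and 12.1 FPKM in WT replicates 1 to 3 and 8.72, 10.8 and 8.09 FPKM in G9gl replicates 1 to 3, without overlap (log2 fold change -0.56 ± 0.13 SE, limma adjusted p 0.014, or 0.057 without WT replicate 2). Ppib and Fkbp2 were not called, with 96.6 ± 7.18 FPKM for WT against 106 ± 11.8 FPKM for G9gl and 60.5 ± 4.88 FPKM for WT against 56.2 ± 6.76 FPKM for G9gl (limma adjusted p 0.30 and 0.44).

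**Figure D3:**
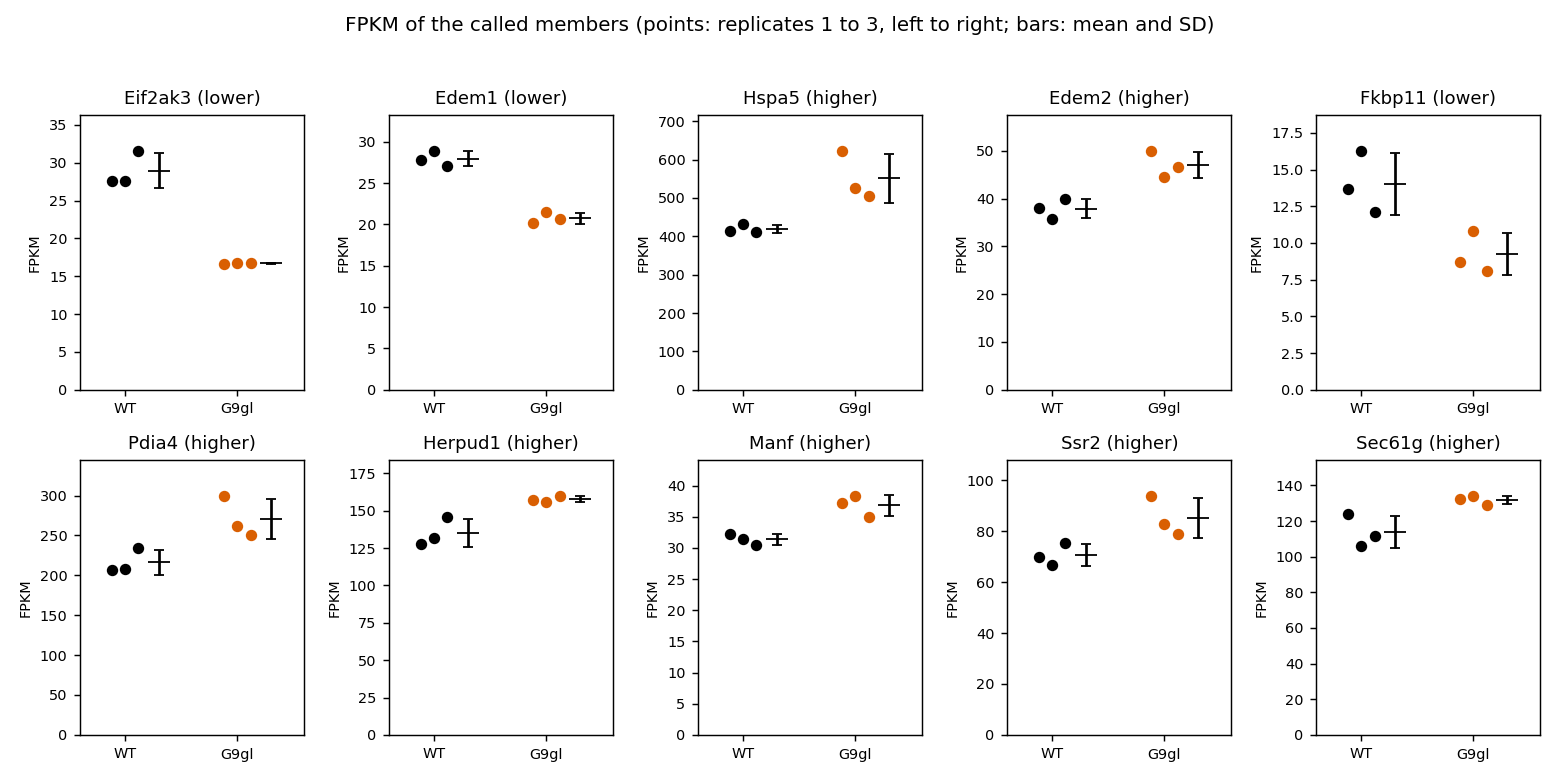
FPKM of the 10 called genes in order of adjusted p, 1 panel each with its own axis from 0; points are replicates 1 to 3 of WT (black) and G9gl (orange), and bars are the mean and SD. In every panel the 3 points of one genotype lie apart from those of the other, with the widest gap for Eif2ak3.

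ER-associated degradation takes misfolded proteins out of the ER, and its mannosidase-like EDEM genes, which mark glycoproteins for removal, moved apart. Edem1 (ENSMUSG00000030104.9, chr6:108828641-108859356, plus strand), a classical XBP1 target, measured 27.8, 28.9 and 27.1 FPKM in WT replicates 1 to 3 and 20.1, 21.5 and 20.7 FPKM in G9gl replicates 1 to 3. The G9gl libraries lay below all WT libraries, a 1.33-fold fall (log2 fold change -0.41 ± 0.067 SE, limma adjusted p 0.0023) that was called in all 15 alternatives. Edem2 (ENSMUSG00000038312.10, chr2:155701677-155729475, minus strand) measured 38.1, 35.8 and 39.9 FPKM in WT replicates 1 to 3 and 50.05, 44.6 and 46.6 FPKM in G9gl replicates 1 to 3, with all G9gl libraries above all WT libraries. It rose 1.23-fold (log2 fold change 0.30 ± 0.070 SE, limma adjusted p 0.013), with an adjusted p of 0.056 without WT replicate 2. Edem3 was lower in each G9gl library, at 6.04, 6.06 and 6.85 FPKM against 7.27, 8.34 and 7.59 FPKM, but did not pass (limma adjusted p 0.093). The ratio of Edem2 to Edem1 was 1.37, 1.24 and 1.47 in WT replicates 1 to 3 and 2.49, 2.08 and 2.25 in G9gl replicates 1 to 3, again without overlap.

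Herpud1, which encodes a membrane adaptor of the degradation complex and carries the second element in its promoter, rose 1.17-fold. It measured 128, 131 and 146 FPKM in WT replicates 1 to 3 and 157, 156 and 159.98 FPKM in G9gl replicates 1 to 3, so that the lowest G9gl value was above the highest WT value (limma adjusted p 0.025). The call was lost without any 1 of WT replicates 1 and 2 and G9gl replicates 2 and 3, with limma adjusted p of 0.065 to 0.089. The core of that complex did not pass: the ubiquitin ligase gene Syvn1 measured 112 ± 5.67 FPKM for WT against 111 ± 3.98 FPKM for G9gl, and its partner Sel1l measured 25.7 ± 1.95 FPKM for WT against 25.7 ± 1.87 FPKM for G9gl. The derlin genes Derl1 and Derl2, which encode parts of the exit channel, measured 56.9 ± 1.06 FPKM for WT against 58.9 ± 2.55 FPKM for G9gl and 19.3 ± 1.41 FPKM for WT against 19.02 ± 0.794 FPKM for G9gl, respectively. The limma adjusted p of these 4 genes was 0.60 to 0.996, and the 95% intervals of their fold changes all lay between 0.873 and 1.14. 

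In a list of other degradation genes, 38 were tested, and 3 were higher (Derl3, Man1a and Vcp) and 1, Rnf5, was lower, that is 7.89% and 2.63% against 11.8% and 11.6% of all genes. Derl3, a derlin gene of secretory cells that is also on the plasma cell marker list, rose 1.396-fold, from 3.78 ± 0.307 to 5.68 ± 0.5202 FPKM (limma adjusted p 0.013). Man1a, a mannosidase gene, and Vcp, which encodes the ATPase that pulls substrates from the membrane, had limma adjusted p of 0.034 and 0.043. Derl3 missed the threshold without WT replicate 2 or G9gl replicate 2 (limma adjusted p 0.053 and 0.055). Among the 6 libraries left out in turn, Man1a kept its call without WT replicate 1 or G9gl replicate 2 and lost it without the other 4, and Vcp kept it without WT replicate 3 and lost it without the other 5. Vcp also lost it with the replicate block (limma adjusted p 0.064). The median log2 fold change of this list was -0.10, and after rescaling to TPM 1 was higher and 15 were lower. The count higher was 0 without WT replicate 2 and 1 without any 1 of the G9gl libraries, and the count lower was 4 without G9gl replicate 1 and 0 without WT replicate 1 or G9gl replicate 2 or 3. Where limma called 0 of these genes, 2 to 10 had an unadjusted p under 0.05 in that direction.

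The genes of protein entry into the ER were slightly higher in places. In the Sec61 channel, Sec61g measured 124, 106 and 111 FPKM in WT replicates 1 to 3 and 132, 134 and 129 FPKM in G9gl replicates 1 to 3, a 1.16-fold rise without overlap (limma adjusted p 0.041). Sec61b measured 195 ± 12.9 FPKM for WT against 216 ± 12.1 FPKM for G9gl (limma adjusted p 0.14) and the pore subunit Sec61a1 82.7 ± 4.996 FPKM for WT against 85.5 ± 2.19 FPKM for G9gl (limma adjusted p 0.60). In the translocon-associated TRAP complex, which assists insertion, Ssr2 rose 1.201-fold, from 69.8, 66.8 and 75.4 FPKM to 93.9, 82.9 and 78.8 FPKM (limma adjusted p 0.036). Ssr4 was higher in every G9gl library, with 123 ± 7.64 FPKM for WT against 141 ± 9.84 FPKM for G9gl, and did not pass (limma adjusted p 0.075, or 0.048 without WT replicate 1), while Ssr1 and Ssr3 overlapped between genotypes, with 16.3 ± 1.14 FPKM for WT against 15.99 ± 0.672 FPKM for G9gl and 25.3 ± 2.97 FPKM for WT against 27.02 ± 0.733 FPKM for G9gl (limma adjusted p 0.85 and 0.47). The signal peptidase genes Spcs1, Spcs2 and Spcs3, whose complex trims signal peptides, had limma adjusted p of 0.054, 0.47 and 0.38. Spcs2 measured 69.3 ± 2.13 FPKM for WT against 73.3 ± 5.96 FPKM for G9gl, and Spcs3 40.6 ± 2.93 FPKM for WT against 37.99 ± 0.289 FPKM for G9gl, both with overlap. Spcs1 was higher in every G9gl library, with 81.6 ± 5.98 FPKM for WT against 96.7 ± 8.46 FPKM for G9gl, and passed with the replicate number as a block (limma adjusted p 0.035). The calls of both translocon genes lay near the threshold and were lost in most fits with 1 library left out. Where lost there, the log2 fold change was 0.17 to 0.23 for Sec61g and 0.19 to 0.28 for Ssr2. With all libraries it was 0.21 and 0.26. Among the 6 libraries left out in turn, Sec61g kept its call only without WT replicate 1 (limma adjusted p 0.065 to 0.14 for the other 5). Its limma adjusted p was 0.061 with the block and 0.16 with a trend on transcript length and GC content removed. Ssr2 lost its call without any 1 of WT replicates 1 and 2 and G9gl replicates 1 and 2 (limma adjusted p 0.070 to 0.13). With the block its limma adjusted p was 0.057.

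Ratios within a library were used to set BiP against the other genes of the set of 14. Those of Hspa5 share a numerator and are not independent of each other. Hspa5 divided by Hsp90b1 was 2.01, 2.13 and 1.92 in WT replicates 1 to 3 and 2.52, 2.65 and 2.62 in G9gl replicates 1 to 3, and Hspa5 divided by Hyou1 was 18.2, 17.8 and 16.997 in WT replicates 1 to 3 and 26.8, 27.1 and 26.2 in G9gl replicates 1 to 3. In both ratios G9gl replicate 1 lay with the other G9gl libraries. Of the 13 ratios of Hspa5 to the other genes of the set of 14, 10 were higher in G9gl without overlap, against 63.1% of the ratios of Hspa5 to all other tested genes above 0 in all libraries. Those that overlapped were the ratios to Dnajb9, Sdf2l1 and Pdia4. Hspa5 divided by Pdia4 was 2.01, 2.08 and 1.75 in WT replicates 1 to 3 and 2.08, 2.01 and 2.01 in G9gl replicates 1 to 3, so that the genotypes overlapped for this pair.

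**Figure D4:**
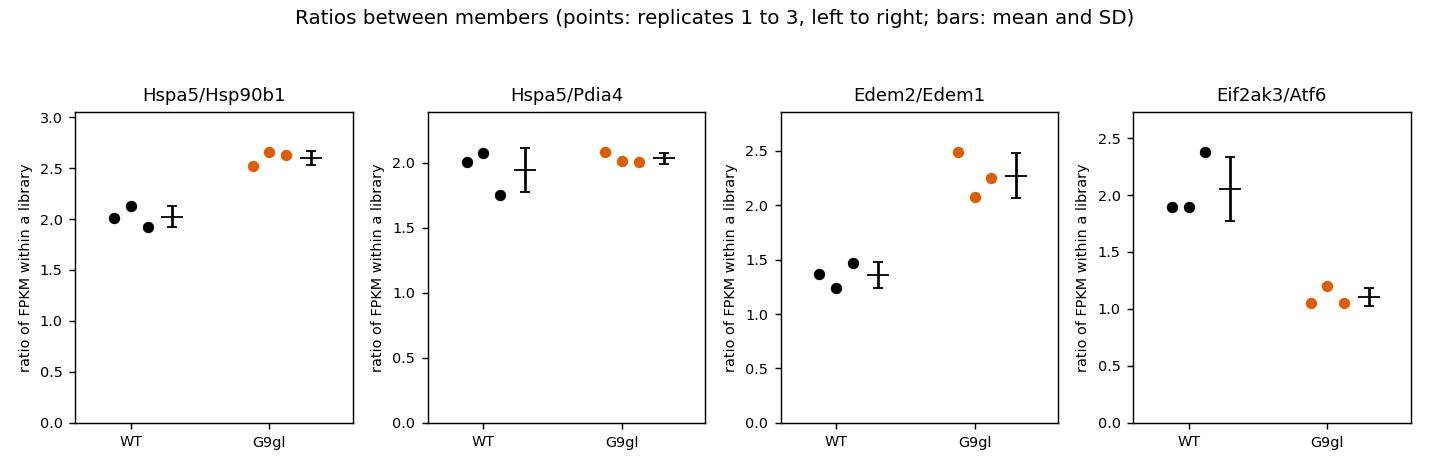
Ratios of FPKM between 2 genes of the same library, with each axis from 0; points are replicates 1 to 3 of WT (black) and G9gl (orange), and bars are the mean and SD. The ratios of Hspa5 to Hsp90b1 and of Edem2 to Edem1 are higher in every G9gl library, that of Eif2ak3 to Atf6 is lower, and that of Hspa5 to Pdia4 overlaps.

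Read against the promoters shown above, the 10 members that carry either element included 2 of the genes called higher, Hspa5 and Herpud1, 0 called lower, and 8 that were not called. Of all members 23.8% were called, and of all genes tested 23.4%, so 2 of 10 was near those shares. Of the other genes called higher, Pdia4 and Edem2 held only the half-site CCACG, Sec61g held none, and Manf and Ssr2 had no entry. Among the genes called lower, Edem1 held the half-site, Fkbp11 held it in 1 of its 2 windows, and Eif2ak3 held none. Hsp90b1, which held 2 full elements, differed between genotypes by 1.018-fold (95% interval 0.888 to 1.17).

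The surrounding secretory pathway was described by lists of genes that are not members; the 3 genes of each list with the smallest p were named, and any others were named after their values were seen. Of 29 tested genes for other ER folding and redox functions, 7 were higher and 2 lower, 24.1% and 6.90%. Prdx4, an ER peroxiredoxin gene, rose 1.62-fold, from 20.3, 20.8 and 20.03 FPKM to 30.9, 37.1 and 33.3 FPKM (limma adjusted p 3.0e-04). Sil1, a nucleotide exchange factor gene of BiP, rose 1.58-fold, from 14.6, 15.7 and 17.4 FPKM to 23.004, 27.3 and 26.98 FPKM (limma adjusted p 0.0011). Txndc5, a disulfide isomerase gene, fell 1.37-fold, from 184 ± 5.58 to 135 ± 7.06 FPKM (limma adjusted p 5.6e-04), and the other gene lower was Itpr3, which encodes a calcium channel. For all 3 named genes the groups did not overlap. Over the list the median log2 fold change was 0.0066, and after rescaling to TPM 3 were higher and 4 lower. Without WT replicate 2, G9gl replicate 2 or G9gl replicate 3, 4 were higher.

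Of 44 tested genes for targeting to the ER and N-glycosylation, 5 were higher (Stt3b, Prkcsh, Alg1, Srp14 and Emc4) and 0 lower, with a median of 0.067. Their share of 11.4% was close to the 11.8% of all genes, and without WT replicate 2, 3 were higher. Stt3b, a catalytic subunit of oligosaccharyltransferase, rose 1.36-fold, from 108 ± 3.06 to 148 ± 5.22 FPKM (limma adjusted p 4.1e-04). Prkcsh, a glucosidase II subunit gene, and Alg1, a mannosyltransferase gene, rose 1.26-fold and 1.25-fold (limma adjusted p 0.00996 and 0.014). At an unadjusted p under 0.05, limma gave 1 lower gene on this list, and after rescaling to TPM 1 was higher and 3 lower. Of 48 tested genes of vesicle coats and cargo receptors between ER and Golgi, 3 were higher (Tmed3, Sec13 and Tfg) and 2 lower (Sec23a and Copa), 6.25% and 4.17%, with a median of 0.0095. Tmed3, a cargo receptor gene, rose 1.31-fold and the coat gene Sec13 1.18-fold (limma adjusted p 0.0099 and 0.020), the latter with 0.054 to 0.073 without WT replicate 1, WT replicate 2 or G9gl replicate 2. Without WT replicate 1 or G9gl replicate 2, 1 of the 48 was higher, and when WT replicate 2 or 3, or G9gl replicate 2 or 3, was left out, 0 were lower by limma, with 2 or 3 at an unadjusted p under 0.05. Both counts of this list thus changed with the library left out, in fits that also called fewer of all genes.

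**Figure D5:**
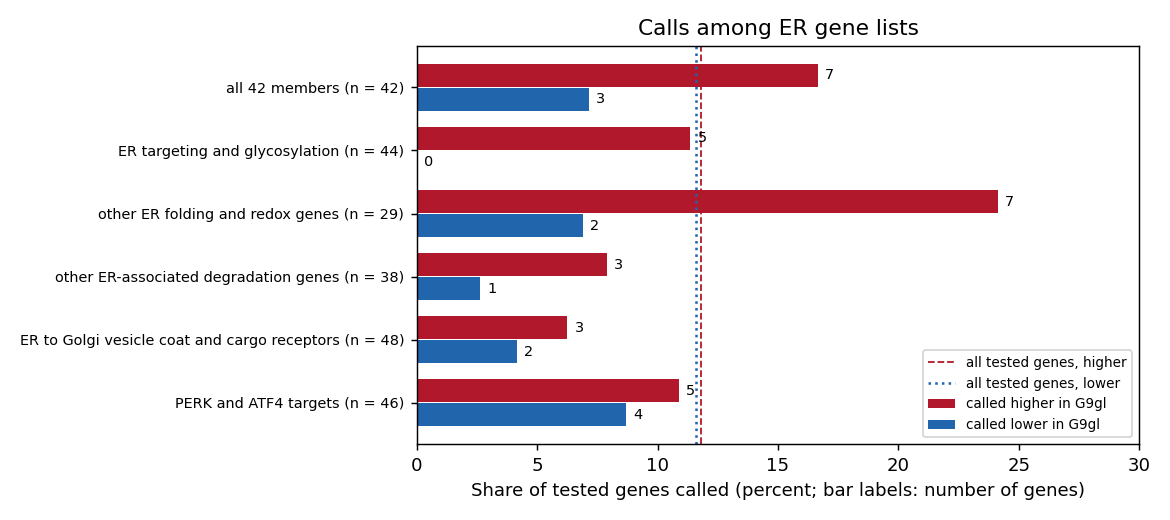
Share of tested genes called higher (red) or lower (blue) in G9gl for the 42 members and for 5 lists of other ER genes, with the number of genes at each bar; the dashed and dotted lines mark 11.8% and 11.6% of all genes tested. The members and the list of other folding and redox genes exceed the line for higher genes, and no list exceeds the line for lower genes.

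The depth was estimated at 9330000 to 10720000 fragments a library, which puts about 18.7 to 21.4 fragments behind 1 FPKM for a 2 kb transcript. The sorted cells carried the genes of B cells, with Cd79a at 2167 to 2625 FPKM in all libraries. However, 5 of 10 B cell markers were lower in G9gl, among them Cr2 and Fcer2a, which encode CD21 and CD23 of the sort gate. Another, Cd22, was higher (limma adjusted p 0.015). The sum of these markers was 8669 to 8946 FPKM in WT and 7880 to 8281 FPKM in G9gl. Of 4 germinal centre markers tested from a list of 7, 3 were higher (Rgs13, S1pr2 and Fas) and 1, Bcl6, was lower. Of 5 marginal zone markers, 1 was higher and 2 were lower. Of all genes tested, 11.8% were called higher and 11.6% lower. Plasma cell markers bear on secretory genes: of 9 tested from a list of 12, 3 were called higher (Jchain, Sdc1 and Derl3) and 2 lower (Txndc5 and Tnfrsf13b). Jchain passed the filter through the G9gl libraries alone, which leaves 2 higher and 2 lower of the other 8. The summed level was 528 to 539 FPKM in WT and 434 to 481 FPKM in G9gl. Most of that sum came from Mzb1, Txndc5 and Tnfrsf13b, with means of 199, 184 and 107 FPKM in WT and 203, 135 and 61.9 FPKM in G9gl. Sdc1 had means of 9.81 FPKM in WT and 19.3 FPKM in G9gl, so the sum does not stand for each marker. Prdm1, the defining factor gene of plasma cells, stayed at 0.343 to 0.832 FPKM in all libraries, while Jchain measured 0.529, 0.795 and 0.414 FPKM in WT and 5.43, 6.27 and 6.98 FPKM in G9gl. Of 12 tested macrophage markers, 10 were called higher in G9gl, or 9 of 11 without Axl, which likewise passed through G9gl alone, with sums of 24.0 to 31.7 FPKM in WT and 62.6 to 69.2 FPKM in G9gl over 16 genes. Erythroid genes summed to 41.6 to 43.7 FPKM in WT and 60.9 to 222 FPKM in G9gl, and neutrophil genes to 2.11 to 7.78 and 14.9 to 34.7 FPKM. From a list for heat shock and cell dissociation 20 genes were tested, and 10 were higher and 2 lower, with sums of 4838 to 5123 FPKM in WT and 5827 to 6646 FPKM in G9gl. The part of these cells and genes in the changes above was not tested, and in bulk samples more cells of a type cannot be told apart from more RNA per cell.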

How the data were processed

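RNA from sorted Fo B cells of 3 WT and 3 G9gl samples was extracted with Trizol, turned into full-length cDNA with a SMART-Seq HT kit and made into Nextera libraries, per the labels' protocols. The authors deposited 1 table of FPKM per gene symbol and library. The submitters' processing notes name TopHat2 2.0.13, Bowtie2 2.2.3, SAMtools 0.1.19, Cufflinks 2.2.1 and build mm10. Their annotation, filters and scaling were not given in the sources used here. SMART-Seq libraries do not mark strand, so a read over 2 genes on opposite strands cannot be assigned to either.

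No counts were used, so FPKM values were analysed on the log2(FPKM + 1) scale. The test covered 10122 of 24346 genes, those that reached 1 FPKM in 3 or more of the 6 libraries. limma 3.58.1 in R 4.3.3 was fitted over all of them with a mean-variance trend, and p-values are two-sided with Benjamini-Hochberg adjustment over all genes tested. A gene was called at an adjusted p under 0.05. The script was tested on simulated data. Given with values in every library are the sensors and transcription factors, Hspa5 and the called members. From each related list the 3 called genes with the smallest p are named. Other names complete small counts or describe a role group. The members and lists were chosen with earlier results of these data known. Intervals are 95% confidence intervals from limma.

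Gene positions and transcript lengths are from GENCODE for GRCm38 (mm10), promoters from RefSeq GRCm38.p6. Fragments per library were estimated from the steps between low FPKM values of single-transcript genes of at least 1500 bases. Apart from genes at 0, no pair of libraries shared more than 2 identical values. Alternatives were a pseudocount of 0.1, no filter, a filter of 5 FPKM, rescaling to TPM, median-ratio scaling, quantile normalization, no mean-variance trend, the replicate number as a block, removal of a trend on length and GC content (known for 96.2% of tested genes), and each library left out in turn. Immunoglobulin genes were not analysed here.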

Additional observations from a re-analysis of the deposited data

How the results depend on the processing

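Of the 10 called members, Eif2ak3 and Edem1 kept their call in all 15 alternatives, 8 lost it in at least 1, and 0 changed direction. Of the uncalled members, 6 passed in at least 1 alternative and 19 changed sign in at least 1. Of the 15 genes with the smallest p in the 5 related lists (3 from each), 7 lost their call in at least 1 alternative in which they were tested, and 0 changed direction. Asns, 1 of the 15, is not among those 7. It was not tested with a filter of 5 FPKM or without any 1 of the G9gl libraries, and so had no call there. Other genes named from those lists were followed only through the counts. A pseudocount of 0.1, a filter of 5 FPKM and median-ratio scaling left 7 members higher and 3 lower. The count of 7 higher members became 3 with no filter, 1 after rescaling to TPM, 4 after quantile normalization, 2 without the mean-variance trend, 4 with the length and GC trend removed, and 1 to 5 with 1 library left out. The count of 3 lower members became 6 after rescaling to TPM and 2 to 5 with 1 library left out. Rescaling to TPM changed the counts of all genes from 1191 higher and 1174 lower to 730 and 2493. With 1 library left out the counts of all genes were 793 to 1076 higher and 689 to 1175 lower.

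For targeting and glycosylation, the 5 higher genes became 1 (TPM), 3 (no trend), 3 (length and GC) and 3 to 4 with 1 library left out, and the 0 lower genes became 3 (TPM). For other folding and redox genes, the 7 higher became 3 (TPM) and 4 to 6 with 1 library left out, and the 2 lower became 4 (TPM) and 4 (length and GC). For other degradation genes, the 3 higher became 0 (no filter), 1 (TPM), 1 (quantile), 1 (no trend), 5 (length and GC) and 0 to 2 with 1 library left out. The 1 lower gene there became 0 (pseudocount 0.1), 0 (no filter), 15 (TPM), 0 (quantile), 2 (length and GC) and 0 to 4 with 1 library left out. For vesicle genes, the 3 higher became 1 (TPM), 1 (no trend) and 1 to 3 with 1 library left out, and the 2 lower became 0 (no filter), 11 (TPM), 1 (no trend), 0 (replicate block), 1 (length and GC) and 0 to 2. For the PERK and ATF4 list, the 5 higher became 3 (no filter), 3 (TPM), 3 (no trend) and 2 to 3 with 1 library left out, and the 4 lower became 1 (no filter), 10 (TPM) and 1 to 5. Where limma called 0 genes of a list in a direction, 0 to 10 had an unadjusted p under 0.05. Rescaling to TPM divides each value by the FPKM total of its library. Those totals were 603054 to 611557 in WT and 657759 to 671533 in G9gl, so rescaling lowered G9gl values relative to WT. The cause of the other differences was not tested.

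Sign changes concerned uncalled genes. After rescaling to TPM the log2 fold change was -0.11 for Hsp90b1, -0.075 for Dnajc3, -0.031 for Atf6, -0.0025 for Xbp1, -0.062 for Atf4, -0.084 for Derl1, -0.083 for Sec61a1, -0.031 for Ssr3 and -0.056 for Spcs2. After quantile normalization it was -0.048 for Hsp90b1, 0.00996 for Derl2 and 0.0068 for Ssr1. With the length and GC trend removed it was -0.0046 for Hsp90b1, 0.073 for Ern1, -0.0038 for Ddit3, 0.084 for Sel1l, 0.084 for Syvn1, 0.0049 for Derl2 and 0.10 for Ssr1. With 1 library left out in turn it ran from -0.087 to 0.094 for Hsp90b1, -0.12 to 0.051 for Dnajb11, -0.028 to 0.29 for Sdf2l1, -0.073 to 0.050 for Canx, -0.22 to 0.0090 for Pdia6, -0.15 to 0.11 for Ern1, -0.057 to 0.059 for Sel1l, -0.044 to 0.026 for Syvn1, -0.055 to 0.039 for Derl2 and -0.061 to 0.028 for Ssr1.

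The libraries share replicate numbers across genotypes, but the deviations of same-numbered libraries had correlations of 0.099, -0.069 and 0.021 across genes, so the numbers were not taken to pair them. With the replicate number as a block, 5 members were higher and 3 lower, and 1044 and 988 of all genes. Only 3 of the 6 libraries (WT replicate 1, G9gl replicate 1 and G9gl replicate 3) correlated best with their own number. Depth limits Ern1, the member with the lowest FPKM, most.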
